A study of Mus musculus with 2 samples.

Results

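The genes described here encode 10 peptide hormones and neuropeptides that belong to pancreatic islets, the gut or the nervous system: Ins1, Ins2, Iapp, Gcg, Sst, Ppy, Pyy, Ghrl, Npy and Pomc. They were chosen by symbol, and 10 of the 55487 genes in the count matrix carried these symbols. RNA was measured cell by cell in medullary thymic epithelium, whose cells (mTECs) are the ones that show antigens of other organs to developing T cells. The mice were wild-type C57BL/6J females aged 4 weeks that received, per the labels, 7 daily injections into the abdomen of spermidine at 15 mg/kg, or of phosphate-buffered saline (PBS) alone. All 4 samples were depleted of CD45+ cells and sorted as mTEChi and post-Aire mTEClo cells, tagged with hashtag antibodies and run together on 10x Genomics 3' v3 chemistry. Hashtags HT2 and HT3 were spermidine replicates 1 and 2, and hashtags HT4 and HT5 were PBS replicates 1 and 2. The labels did not say whether a replicate was 1 mouse or a pool, so p-values cover only the spread between these samples, which may be technical.

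Medullary thymic epithelial cells transcribe a large number of genes of other organs, many of them through the transcriptional regulator Aire, and T cells that react to such products are deleted or diverted. Each such gene is known to be switched on in a small part of the cells at a time. After the Aire stage some mTECs turn into mimetic cells, which resemble tuft, neuroendocrine, keratinocyte, microfold and other cell types and use the transcription factors of those types. Insulin is a classic case, because the amount of it made in the thymus is known to bear on tolerance to the islets.

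The data held 1374 and 1007 assigned cells with spermidine, with 25673749 and 18230040 unique molecular identifiers (UMIs, counted RNA molecules), and 1335 and 993 with PBS, with 23172408 and 17668782 UMIs. Median UMIs per cell were 17365 and 16782 with spermidine and 15736 and 16378 with PBS. An assignment with 6 hashtags, which adds HT6 and HT7 that no label ties to a sample, called 897 of the 4709 assigned cells doublets, so several main counts are also given for its 3739 singlets. These singlets are a separate assignment and also hold some cells that the main assignment left out. The 12139 cell barcodes were distinct, and all came from 1 run. Clusters were built without the 10 genes and named "like" from marker genes. Clusters 4 and 5 formed the Aire-stage class, with Aire at 945 and 405 CPM (UMI counts scaled to a common library total), and each had 6 of 12 Aire-stage markers more than 2-fold higher than the other cells. Aire was not particular to them: transit-amplifying-like cells had it at 858 CPM, with an Aire UMI in 90.7% of cells. Cluster 2, called keratinocyte-like for 10 of 12 markers, also had 6 secretory markers more than 2-fold higher.

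The starts of the genes are shown first, because 5 of the 9 genes with a RefSeq promoter window share the letters of a TATA box at the usual distance, and because Ppy and Pyy, neighbours in the genome, were often found in the same cells. Each window runs from 250 bases before to 50 bases after an annotated start (RefSeq, GRCm38.p6), on the gene's own strand, and capitals mark TATAA or TGACGTCA on either strand. The Ppy window lies at chr11:102101270-102101569, the Pyy window at chr11:102107783-102108082, the Iapp window at chr6:142298175-142298474 and the Sst window at chr16:23890795-23891094. The Ppy, Pyy and Sst windows are on the minus strand and the Iapp window is on the plus strand.
Ppy: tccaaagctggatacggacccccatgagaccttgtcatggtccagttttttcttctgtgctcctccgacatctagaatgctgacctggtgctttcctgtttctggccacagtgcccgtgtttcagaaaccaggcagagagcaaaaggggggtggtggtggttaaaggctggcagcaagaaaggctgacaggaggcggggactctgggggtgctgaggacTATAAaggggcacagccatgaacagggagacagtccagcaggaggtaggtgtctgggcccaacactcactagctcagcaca
Pyy: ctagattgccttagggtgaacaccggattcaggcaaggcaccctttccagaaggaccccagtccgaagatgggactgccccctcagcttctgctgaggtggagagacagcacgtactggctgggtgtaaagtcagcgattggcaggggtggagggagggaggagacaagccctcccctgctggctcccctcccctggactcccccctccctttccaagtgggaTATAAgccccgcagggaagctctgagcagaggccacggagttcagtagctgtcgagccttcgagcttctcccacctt
Iapp: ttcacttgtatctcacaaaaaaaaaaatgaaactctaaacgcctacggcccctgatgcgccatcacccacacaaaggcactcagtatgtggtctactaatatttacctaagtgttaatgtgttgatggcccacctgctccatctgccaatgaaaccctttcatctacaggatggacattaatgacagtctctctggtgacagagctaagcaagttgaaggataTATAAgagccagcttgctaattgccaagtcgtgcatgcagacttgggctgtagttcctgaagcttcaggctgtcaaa
Sst: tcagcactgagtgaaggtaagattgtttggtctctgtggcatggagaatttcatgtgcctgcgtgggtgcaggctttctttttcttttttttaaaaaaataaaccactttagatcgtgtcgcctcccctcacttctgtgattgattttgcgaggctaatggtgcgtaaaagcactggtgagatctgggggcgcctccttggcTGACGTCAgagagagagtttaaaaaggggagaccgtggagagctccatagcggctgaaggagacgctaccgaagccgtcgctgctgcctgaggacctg
Read on the gene's own strand, TATAA began 31 bases before the start in Ppy, 27 in Pyy, 27 in Iapp, 25 in Pomc and 24 in Gcg. Among the 32851 windows of all genes, 3.17% held TATAA beginning between 35 and 20 bases before the start, and 24.9% held it anywhere on either strand. The Sst window held no TATAA and had TGACGTCA, the letters of a cyclic AMP response element, 48 bases before its start, which 1.79% of all windows hold. CCAAT, searched on both strands, was in windows of Npy, Ghrl, Iapp, Pyy and Ins1 and in 37.4% of all windows. CGCGCG and CACACACA, alternating letters that can take the Z-DNA form, were in 0 of the 13 windows of these genes on either strand, against 11.3% and 4.09% of all windows. These are matches of letters in a 300-base window and not measured sites.

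Most of the 10 transcripts lay in Aire-stage cells, while Iapp and Ghrl lay largely or mostly in mimetic cells. The Aire-stage class, 1368 of the 4709 cells, held 94.9% of the Sst UMIs, 88.8% of Pyy, 84.1% of Pomc, 82.6% of Ppy, 79.4% of Npy, 77.6% of Ins2 and 73.7% of Gcg. These 7 genes had most of their UMIs in this class, and so they did among the 6-hashtag singlets. With coarser clusters (resolution 0.5) the Ins2 share was 47.5%. There a cluster that shared leading genes with cluster 5 took the enterocyte-like or hepatocyte-like name. Of the cells with 10 UMIs or more, an Aire UMI was also found in 93.5% for Ppy, 93.0% for Pomc, 92.6% for Sst, 92.3% for Npy, 91.9% for Pyy, 86.7% for Gcg, 72.2% for Iapp, 69.6% for Ins2 and 63.2% for Ghrl, against 53.5% of all assigned cells. Deeper cells more often have a UMI of any gene: the holders' median depth ran from 20135 UMIs for Ghrl to 28698 for Sst, against 16538 for all assigned cells.

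**Figure D1:**
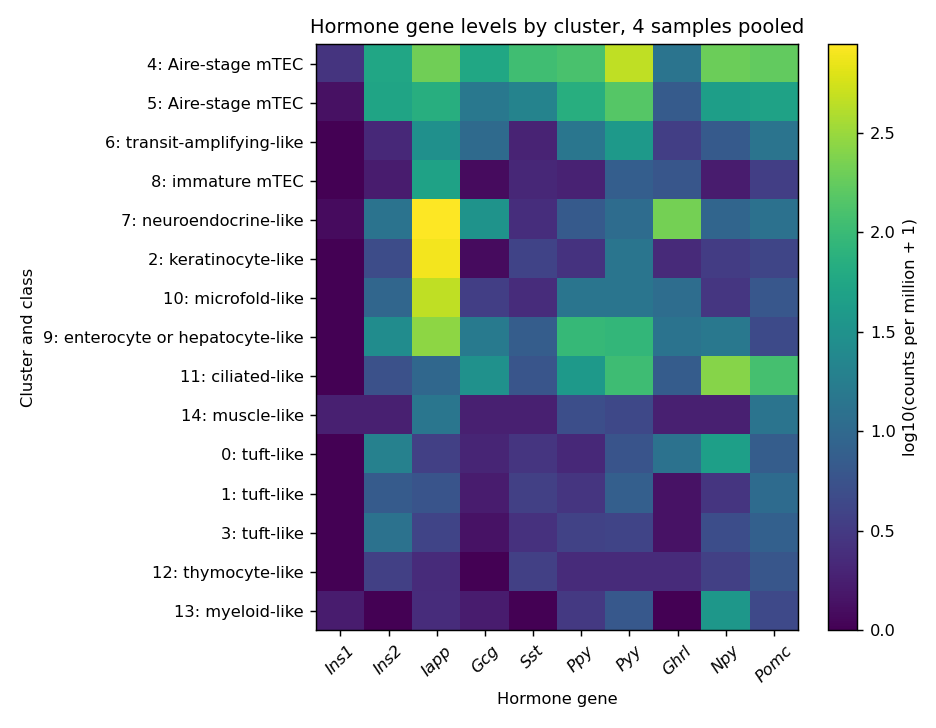
Levels of the 10 hormone genes (columns) in the 15 clusters (rows, with their class), as log10(CPM + 1) over the 4 samples pooled. Cluster 4 holds 7 of the genes at over 50 CPM besides Iapp, while Iapp is at 880 CPM in neuroendocrine-like and 780 CPM in keratinocyte-like cells.

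Insulin comes from 2 genes in the mouse, and the thymus is known mainly for Ins2. Ins2 (ENSMUSG00000000215.11, GRCm38 chromosome 7, 142678656 to 142743381, minus strand) had 1878 UMIs in 238 cells, 46 of them with 10 or more (1546 UMIs in 177 cells among 6-hashtag singlets). It stood at 53.7 CPM in cluster 4 and 50.9 CPM in cluster 5 over all samples, with samples that differed in order: spermidine replicate 1 had 29.0 in cluster 4 and 57.3 in cluster 5, and PBS replicate 1 had 88.4 and 17.9. In the 1266 tuft-like cells it stood at 11.8 CPM, with 11.7% of its UMIs and 4 of its 46 cells at 10 UMIs or more. The annotated Ins2 gene spans 64726 bases, against 1180 for Ins1, and the counts do not show where in it the reads lay. Ins1 (ENSMUSG00000035804.5, chromosome 19, 52264297 to 52265476, plus strand) had 36 UMIs in 11 cells, and 26 of these UMIs lay in 2 cells. Those 2 cells had 17 and 9 Ins1 UMIs and 0 of Ins2, and 1 of the 11 cells had a UMI of both. The last 600 bases of the annotated Ins1 and Ins2 transcripts share an identical run of 56 bases, and the sources used here do not say how reads matching both were counted, so the Ins1 counts are uncertain.

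Iapp, islet amyloid polypeptide, which beta cells release with insulin, had the most UMIs of the 10, 15100 in 633 cells and 9775 in 503 cells among 6-hashtag singlets (ENSMUSG00000041681.2, chromosome 6, 142298423 to 142303961, plus strand). Its UMIs were split over neuroendocrine-like (28.2%), Aire-stage (27.2%), keratinocyte-like (24.4%) and microfold-like cells (1661 UMIs). At 10 UMIs or more it was in 33 of 268 neuroendocrine-like, 70 of 1368 Aire-stage, 19 of 310 keratinocyte-like and 14 of 229 microfold-like cells. The 19 keratinocyte-like holders had summed keratinocyte markers at 8465 CPM, against 16240 CPM in the 260 cells of the cluster with 0 Iapp, and Krt10, a keratin of the suprabasal epidermis, at 893 against 2037 CPM. Their secretory markers summed to 10140 CPM, against 8290 CPM. The 33 neuroendocrine-like holders had secretory markers at 11560 CPM, against 3726 CPM in the 183 cells with 0 Iapp. Single markers did not all follow the sums. In these holders Bpifa1 was at 169 against 596 CPM and Muc5b at 1.44 against 30.9 CPM. Ltf (10.1 against 0.976 CPM) and Spdef (4.32 against 3.25 CPM) were higher. In the keratinocyte-like holders Muc5b was at 0 against 67.3 CPM and Spdef at 2.66 against 15.0 CPM. Bpifa1 (1788 against 962 CPM) and Ltf (322 against 126 CPM) were higher there. Keratinocyte-like cells with 1 to 9 Iapp UMIs had secretory markers at 6918 CPM in sum. Part of the annotated Iapp gene is overlapped by Slco1a5 on the other strand, and no source used here says whether counting used strand.

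Gcg encodes proglucagon, the source of glucagon in alpha cells and of GLP-1 in the gut, and Sst encodes somatostatin, which restrains other hormone cells. Gcg (ENSMUSG00000000394.15, chromosome 2, 62474530 to 62483650, minus strand) had 1477 UMIs in 162 cells and stood at 55.9 CPM in cluster 4, 14.2 CPM in cluster 5 and 31.6 CPM in neuroendocrine-like cells. In the last class 2 cells carried nearly all of it, with 78 and 64 UMIs. Sst (ENSMUSG00000004366.4, chromosome 16, 23889573 to 23890958, minus strand) had 2146 UMIs in 139 cells, and 1241 in 101 cells among 6-hashtag singlets. It stood at 109 CPM in cluster 4 and 19.9 CPM in cluster 5, and at 6.47 CPM or less in every other cluster. In neuroendocrine-like cells, Sst was at 1.45 CPM, beside 2.57 CPM in thymocyte-like cells, which should lack it.

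Ghrl encodes ghrelin, the hunger hormone of the stomach, which is activated by the acyltransferase Mboat4. Ghrl (ENSMUSG00000064177.8, chromosome 6, 113716119 to 113719880, minus strand, overlapped by 2 predicted genes on the other strand) had 1528 UMIs in 127 cells, and 1371 in 95 cells among 6-hashtag singlets. Neuroendocrine-like cells held 67.7% of them, and 7 of the 268 cells of that class had 10 or more. These 7 cells had neuroendocrine markers at 7015 CPM in sum, against 3559 CPM in the 244 cells of the class with 0 Ghrl. Single genes did not all follow the sum. Neurod1, a gene of that list, was at 0 against 11.4 CPM. Nkx2-2, which is not in it, was at 26.2 against 12.8 CPM. Secretory markers summed to 366.5 against 5141 CPM. Mboat4 was at 0 against 0.228 CPM. Both Mboat4 values are near the floor, so they do not show whether the holders lack it. Another 7 cells with 10 or more Ghrl UMIs were Aire-stage cells.

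Npy, neuropeptide Y, and Pomc, the precursor of ACTH and melanocortins, are neural and pituitary genes. Npy (ENSMUSG00000029819.6, chromosome 6, 49822710 to 49829507, plus strand) had 4641 UMIs in 227 cells and stood at 193 CPM in cluster 4 and 43.5 CPM in cluster 5. Its 259 CPM in the 50 ciliated-like cells came mainly from 1 cell with 10 UMIs or more. Pomc (ENSMUSG00000020660.6, chromosome 12, 3954951 to 3960642, plus strand) had 4027 UMIs in 634 cells, and 3515 in 510 cells among 6-hashtag singlets. Of the 634 cells 487 had a single Pomc UMI. In ciliated-like cells 64.0% had a Pomc UMI, and 27.7% of 47 cells after thinning each cell to 5000 UMIs, against 8.62% of Aire-stage and 2.82% of thymocyte-like cells thinned the same way. The ciliated-like median depth was 32523 UMIs and the thymocyte-like one 5745. Thymocyte-like cells, which should lack these genes, give a comparison for free RNA in droplets: 3.42% of the 117 cells had a Pomc UMI, 1.71% one of Ins2 and 0.855% one of Iapp, and none had 10 UMIs of any of the 10 genes.

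Few cells carried most of each transcript. Ranked from the highest cell down, 50% of the UMIs lay in 4 cells for Ghrl, 6 for Sst, 9 for Npy, 11 for Gcg, 11 for Pomc, 17 for Ins2, 18 for Ppy, 18 for Pyy and 22 for Iapp. The highest single cell held 19.9% of the Sst UMIs, 18.1% of Ghrl, 10.2% of Npy and between 5.16% and 9.24% of each of the other 6 of these 9 genes. Among the 7619 genes with as many UMIs, 1477 to 15100, the median gene had 50% of its UMIs in 452 cells and 0.524% in its highest cell. The medians of the 9 hormone genes were 11 cells and 8.60%. Within a holder the transcript could be abundant: 1 cell had 782 Iapp UMIs, and Iapp reached up to 4.74% of a cell's UMIs. Among the 6-hashtag singlets 50% of the UMIs lay in 3 cells for Ghrl, 7 for Sst, 7 for Npy and 19 for Iapp. The Sst cell with 426 UMIs, 73.6% of PBS replicate 1's Sst, was not among them.

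**Figure D2:**
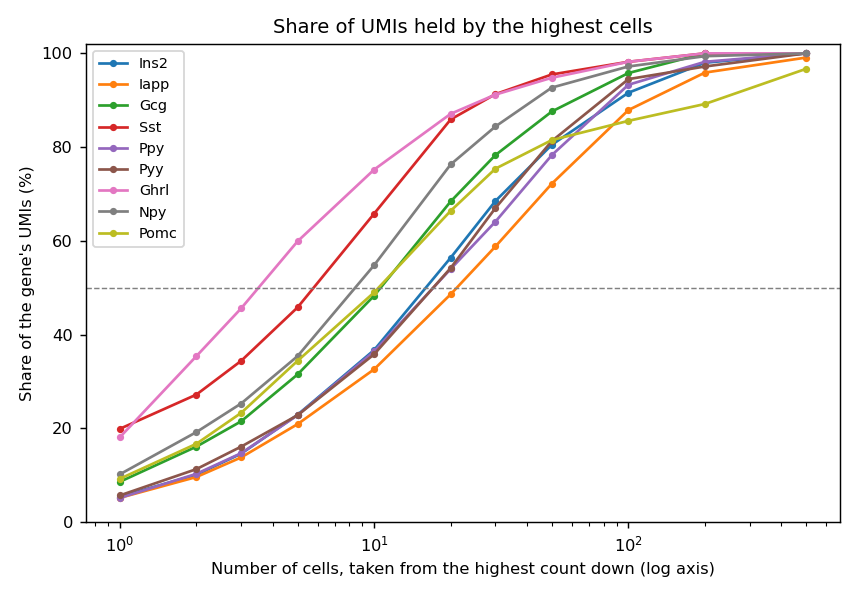
Share of the UMIs of 9 hormone genes, without Ins1, (vertical, percent) held by the cells with the highest counts (horizontal, number of cells, log axis) in the 4709 assigned cells. The dashed line marks 50%, which Ghrl reaches at 4 cells and Iapp at 22.

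Ppy and Pyy, pancreatic polypeptide and peptide YY, are members of the neuropeptide Y family made by islet PP cells and gut endocrine cells. They lie on the same strand of chromosome 11, Ppy (ENSMUSG00000017316.13) at 102099930 to 102101319 and Pyy (ENSMUSG00000017311.15) at 102106676 to 102107832, with 5356 bases between them. Ppy had 3452 UMIs in 262 cells and Pyy 10472 in 493 cells. Both were found in 130 cells, where the product of their shares gives 27.4. At 10 UMIs or more of each, 59 cells held both, where the product gives 1.62, and these were 76.6% of the 77 cells with that much Ppy and 59.6% of the 99 with that much Pyy. Within cluster 4 alone 38 cells held both at this level, where the product gives 4.19, and among its 6-hashtag singlets 32, where it gives 3.59. The 59 cells held 79.9% of the Ppy UMIs and 68.1% of the Pyy UMIs. There were 26 and 16 such cells with spermidine and 4 and 13 with PBS. The other cells showed that each can occur alone: 10 cells with 10 or more Ppy UMIs had 0 Pyy, and 22 with that much Pyy had 0 Ppy. The last 600 bases of their transcripts share at most 10 identical bases in a row.

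**Figure D3:**
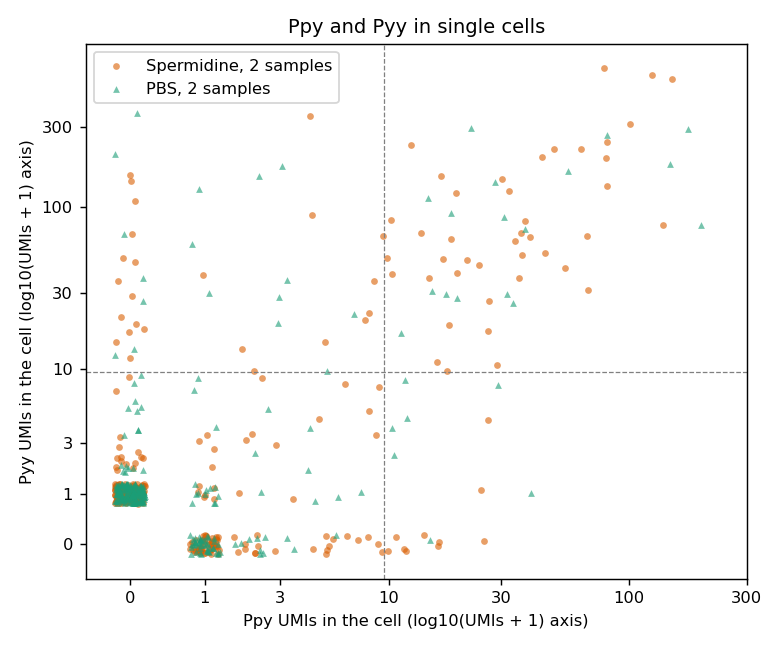
Ppy UMIs (horizontal) and Pyy UMIs (vertical) in each cell with at least 1 of either, on log10(UMIs + 1) axes with a small random shift, for the 2 spermidine samples (circles) and the 2 PBS samples (triangles). Dashed lines mark 10 UMIs, and 59 cells lie beyond both before the shift.

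Among pairs seen together in 10 or more cells of cluster 4, none but Ppy and Pyy stood apart to that extent. The other such pairs were found together at 0.775 to 2.14 times the product of their shares, against 3.14 times for Ppy and Pyy. Counts at 10 UMIs or more were small for those pairs. They were 7 cells with Iapp and Pyy where the product gives 5.01, and 4 with Ins2 and Ppy where it gives 1.29. There were 3 with Gcg and Npy where it gives 0.763, and 3 with Sst and Pomc where it gives 0.943. Gcg and Pyy had 0 where it gives 1.55, and further pairs are not listed. In all, 1944 of the 4709 cells had a UMI of at least 1 of the 10 genes and 669 of more than 1, and 423 had 10 or more UMIs of at least 1 gene, 98 of them of more than 1. Among the 3739 6-hashtag singlets 522 cells had UMIs of more than 1 gene. Cluster 4 held 69 of the 98. In neuroendocrine-like cells 46 of the 47 cells with 10 or more UMIs had that much of 1 gene alone.

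Genes whose levels followed each hormone gene over the 15 clusters are given as a description, since the clusters share libraries and few cells set each level. By Pearson's r of log2(CPM + 1) among 16214 genes, the nearest to Ppy was Pyy (r = 0.93), then Cidec and Gm6619, and the nearest to Pyy were Epb42 (r = 0.97), Cidec and H2-Q1. Sst was nearest to the embryonic globin gene Hba-x (r = 0.95), A2m and Retnlb, Pomc to Rlbp1 (r = 0.95), the pepsinogen gene Pgc and the egg coat gene Zp3, and Npy to the enamel gene Amelx (r = 0.91), Car1 and Fbxl2. Gcg was nearest to Nid1 (r = 0.92), Slc17a1 and Ces1g. Iapp was nearest to Galnt5 (r = 0.94), Dusp4 and Slco1a6, Ghrl to Col8a1 (r = 0.87), Ggcx and Disp2, and Ins2 to E030030I06Rik (r = 0.89), Celf6 and Arl4d.

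Spermidine samples were then set against PBS samples. More cells held a hormone transcript at 10 UMIs or more with spermidine, 10.99% and 10.4%, than with PBS, 7.19% and 7.15%. This share was not thinned for depth. Median UMIs per cell were 17365 and 16782 with spermidine and 15736 and 16378 with PBS. The 10 genes together made up 629 and 588 unscaled CPM with spermidine and 429 and 451 with PBS. The groups did not overlap in either measure. Cluster 4 held 208 of the 423 cells with 10 or more UMIs of a hormone gene. It held 73.3% of the Pyy UMIs, 22.1% of Iapp and 13.7% of Ghrl. Cluster 4 was 20.01% and 17.8% of cells with spermidine and 9.51% and 13.3% with PBS. Within cluster 4 the holders were 29.1% and 30.7% of cells with spermidine and 30.7% and 25.8% with PBS, and here the groups overlapped. Among 6-hashtag singlets the holders were 10.99% and 10.9% of all cells with spermidine and 6.13% and 7.44% with PBS, and in cluster 4 28.1% and 31.0% with spermidine and 30.1% and 29.0% with PBS. Summed Aire-stage markers were 7125 and 6774 CPM with spermidine and 5068 and 6308 CPM with PBS. Both spermidine values lay above both PBS values for 10 of these 12 markers, with none at 0, as for 26.0% of all genes tested. Other cells differed too: transit-amplifying-like cells were 14.6% and 13.5% of cells with spermidine and 6.52% and 8.46% with PBS. All these are shares of sorted cells, and the part of the sort in them was not tested. Summed tuft markers were 2676 and 2793 CPM with spermidine and 4974 and 3924 CPM with PBS (lower for 14 of 14), and thymocyte markers 114 and 96.7 CPM with spermidine and 68.8 and 57.6 CPM with PBS (higher for 8 of 11), with none at 0. Sums over a sample cannot tell more holder cells from more RNA per holder, and the part of the cluster shares and of these markers in the differences was not tested.

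**Figure D4:**
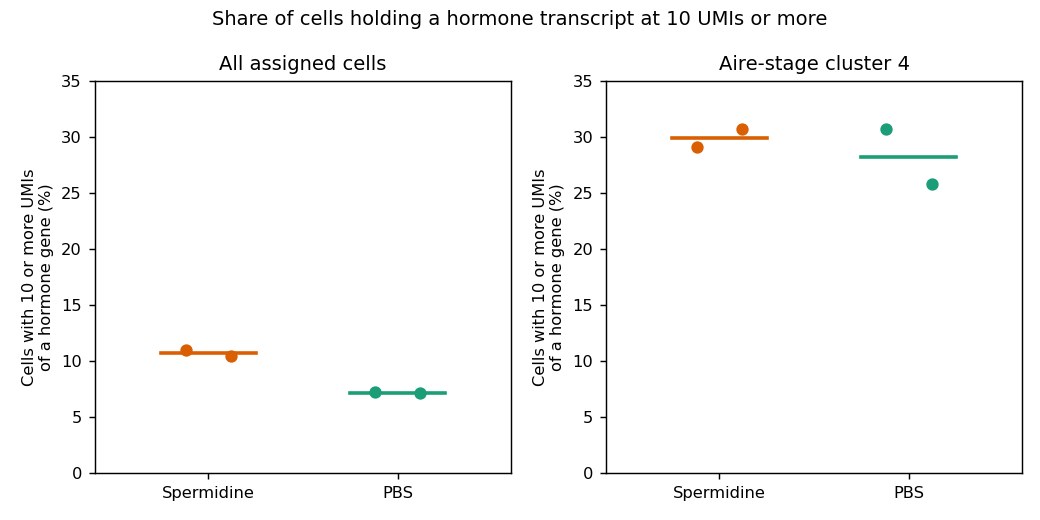
Share of cells (percent) with 10 or more UMIs of at least 1 of the 10 hormone genes in each spermidine and PBS sample (points, with the mean of 2 as a line), over all assigned cells (left) and in cluster 4 (right). The groups are apart on the left and overlap on the right.

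In the fit over all assigned cells 9 of the 10 genes were tested, as Ins1 fell under the low-count filter. By edgeR's quasi-likelihood test with Benjamini-Hochberg adjustment, 0 of the 9 passed at 0.05, as did 0% of the 22660 genes tested. At an unadjusted p under 0.05, 3 of the 9 and 4091 of all genes passed, and DESeq2 called 1 of the 9, Iapp, and 789 of all genes. CPM called unscaled are per all UMIs of the sample, and the CPM of the later paragraphs on fitted cell classes and gene lists are scaled by edgeR's TMM factors. The fitted log2 fold change was positive for 8 of the 9, with a median of 0.43, against 0.01 over all genes tested. For 4 of them, Iapp, Pyy, Sst and Ins2, both spermidine values lay above both PBS values, which held for 26.0% of all genes.

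Iapp stood at 215 and 183 unscaled CPM with spermidine and 158 and 146 with PBS. The log2 fold change was 0.43 (SE 0.10, adjusted p = 0.145 in edgeR), with 2 of 2 spermidine samples above both PBS samples, and DESeq2 gave 0.43 (adjusted p = 0.00920). Adjusted p for Iapp ran from 0.000148 to 0.645 over the settings tried, and the fold change was 0.17 under the margin rule for hashtags. The class with the widest gap was keratinocyte-like, at 1163 and 1596 CPM with spermidine and 346 and 409 CPM with PBS, while neuroendocrine-like cells had 1053 and 669 CPM with spermidine and 856 and 876 CPM with PBS. The keratinocyte-like gap rested on 7 and 6 cells with 10 or more UMIs with spermidine and 4 and 2 with PBS. Without the highest cell of each sample the values were 764 and 840 CPM with spermidine and 204 and 145 CPM with PBS.

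Pyy stood at 153 and 158 unscaled CPM with spermidine and 64.4 and 122 with PBS (log2 fold change 0.78, SE 0.30, adjusted p = 0.269 in edgeR). Ppy stood at 52.8 and 50.3 with spermidine and 10.4 and 53.1 with PBS (log2 fold change 0.75, SE 0.68, adjusted p = 0.616 in edgeR). For Ppy, PBS replicate 1 was low and the other 3 samples were level. Without PBS replicate 2 the fold changes were 2.35 for Ppy and 1.31 for Pyy, each with adjusted p = 0.0245 in edgeR. Without PBS replicate 1 they were -0.02 and 0.37. Both calls rest on which PBS sample is kept.

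Ins2 stood at 20.8 and 33.9 unscaled CPM with spermidine and 17.6 and 17.9 with PBS (log2 fold change 0.66, SE 0.24, adjusted p = 0.243 in edgeR). Without spermidine replicate 2 it was 0.26. The share of cells with an Ins2 UMI, thinned to 5000 UMIs, was 3.09% and 3.51% with spermidine and 2.70% and 3.23% with PBS, so it overlapped. Ins1 had 12 and 21 UMIs with spermidine and 1 and 2 with PBS, in 3 and 5 cells with spermidine and 1 and 2 cells with PBS. The 17-UMI and 9-UMI cells, 1 in each spermidine sample, made most of that gap, and the 17-UMI cell was a doublet by 6 hashtags. Among 6-hashtag singlets Ins1 had 12 and 3 UMIs with spermidine and 1 and 1 with PBS.

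Sst stood at 27.1 and 25.7 unscaled CPM with spermidine and 24.99 and 22.8 with PBS (log2 fold change 0.18, SE 0.08, adjusted p = 0.3329 in edgeR). In Aire-stage cells alone both spermidine values lay below both PBS values, at 64.2 and 68.7 CPM with spermidine and 103 and 70.3 CPM with PBS (log2 fold change -0.38, SE 0.20, adjusted p = 0.820 in edgeR). The 426-UMI cell lay in PBS replicate 1, and among 6-hashtag singlets Sst stood at 23.8 and 27.4 unscaled CPM with spermidine and 6.71 and 20.9 with PBS. Without the highest cell of each sample the Aire-stage levels were 48.3 and 50.5 CPM with spermidine and 22.4 and 48.1 CPM with PBS, so the lower Sst there did not hold without those cells.

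Gcg stood at 15.0 and 22.7 unscaled CPM with spermidine and 15.7 and 17.9 with PBS, Npy at 76.4 and 45.6 with spermidine and 60.7 and 25.02 with PBS, and Pomc at 48.0 and 57.3 with spermidine and 52.8 and 29.8 with PBS. These 3 genes overlapped between the groups in level, with adjusted p from 0.491 to 0.686 in edgeR. Their shares of cells with a UMI did not overlap after thinning to 5000 UMIs. For Npy the shares were 3.58% and 2.72% with spermidine and 2.19% and 2.08% with PBS. For Pomc they were 6.92% and 4.87% with spermidine and 3.79% and 4.84% with PBS, and for Gcg 2.69% and 2.15% with spermidine and 1.52% and 1.61% with PBS. Ppy shares were 4.96% and 3.40% with spermidine and 2.19% and 2.88% with PBS. Each of these 4 had exact permutation p = 0.3333 (two-sided), the smallest that 2 against 2 samples allow. By level, 26.0% of all genes tested lay higher without overlap and 25.9% lower. The like figure for shares of cells was not computed, so these 4 cannot be set against all genes. The set also changed with depth. Thinned to 2000 UMIs, Npy overlapped, while Iapp (higher with spermidine), Ins2 and Ghrl (both lower) did not. Unthinned, the shares still did not overlap for Gcg (4.29% and 3.67% with spermidine, 2.47% and 3.32% with PBS), Ppy (6.91% and 5.76% with spermidine, 4.34% and 5.14% with PBS) and Pomc (15.7% and 14.3% with spermidine, 11.2% and 12.7% with PBS). For Npy they overlapped, at 6.41% and 4.07% with spermidine and 3.82% and 4.73% with PBS. Within cluster 4 the thinned shares overlapped for Gcg and Npy and did not for Ppy, Pyy and Pomc (exact permutation p = 0.3333 each), while in cluster 5 these 3 lay the other way, with Ppy at 6.82% and 5.97% with spermidine and 8.13% and 6.92% with PBS.

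Ghrl was the gene with a negative fold change, at 19.3 and 9.93 unscaled CPM with spermidine and 24.5 and 16.1 with PBS (log2 fold change -0.42, SE 0.35, adjusted p = 0.572 in edgeR). Its groups overlapped. Leaving out spermidine replicate 1 gave -0.99, spermidine replicate 2 -0.04, PBS replicate 1 -0.11 and PBS replicate 2 -0.69. Neuroendocrine-like cells, its main holders, were 4.80% and 3.97% of cells with spermidine and 7.94% and 5.64% with PBS. In that class Ghrl stood at 341 and 13.7 CPM with spermidine and 209 and 220 CPM with PBS.

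**Figure D5:**
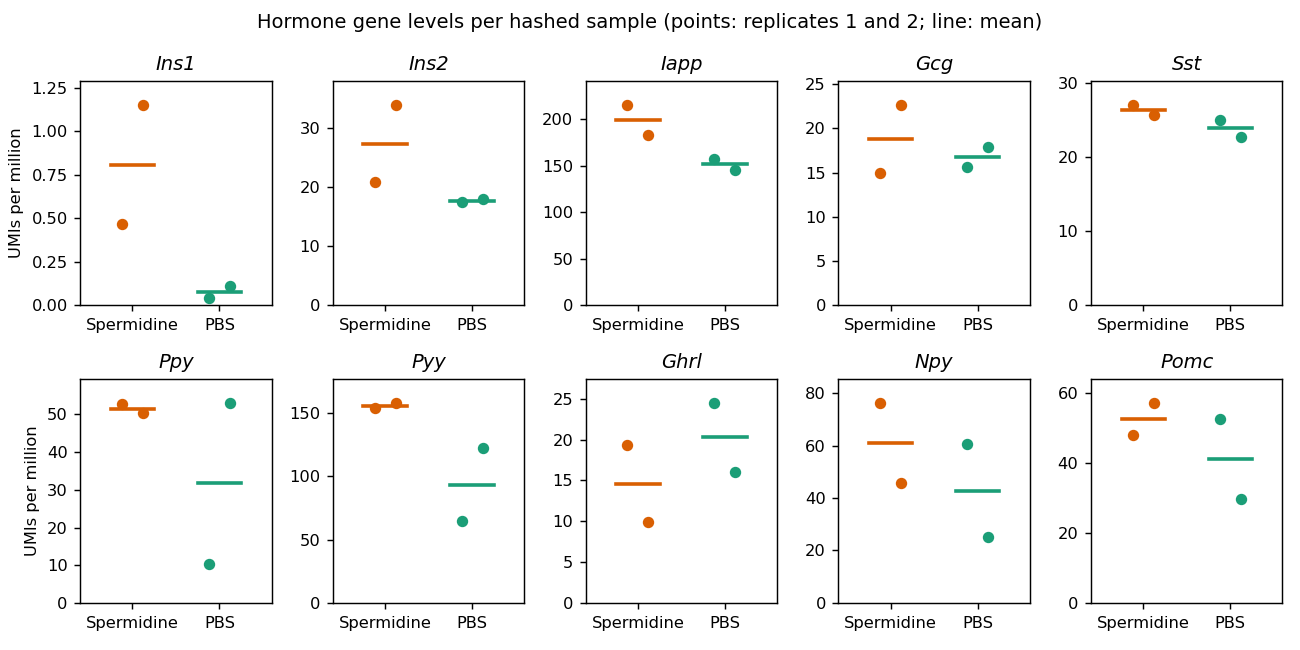
Level of each hormone gene, in unscaled CPM, in the 2 spermidine and the 2 PBS samples (points, with the mean as a line; each panel has its own axis from 0). Ppy is low in 1 PBS sample, at 10.4, and level in the other 3 samples.

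Aire-stage cells were then fitted alone, summed over 471 and 337 cells with spermidine and 274 and 286 with PBS. edgeR called 0 of the 9 genes tested and 0% of 18743, with 0 of the 9 and 1242 of all at an unadjusted p under 0.05, and DESeq2 made 0 calls among the 9 and 68 among all. The fold change was positive for 5 of the 9, with a median of 0.05. Both spermidine values lay below both PBS values for Sst, which held for 18.3% of all genes, and above them for 0 of the 9. Pyy stood at 332 and 423 CPM with spermidine and 241 and 338 CPM with PBS (log2 fold change 0.38, SE 0.20, adjusted p = 0.828 in edgeR). Npy stood at 145 and 82.8 CPM with spermidine and 251 and 60.8 CPM with PBS, and Pomc at 106 and 126 CPM with spermidine and 204 and 73.6 CPM with PBS. In both, PBS replicate 1 was the highest and PBS replicate 2 the lowest sample.

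In neuroendocrine-like cells 5 of the 10 genes were tested, over 66 and 40 cells with spermidine and 106 and 56 with PBS. edgeR called 0 of the 5 and 0% of 11025 genes, with 1 of the 5 and 452 of all at an unadjusted p under 0.05, and DESeq2 called 1 of the 5 and 9 of all. That gene was Gcg, at 0.868 and 0 CPM with spermidine and 39.0 and 77.0 CPM with PBS (adjusted p = 0.341 in edgeR and 0.00866 in DESeq2). In each PBS sample 1 cell carried it, with 87.7% and 98.7% of the UMIs.

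The other genes of hormone production were described from lists. None of them passed in edgeR over all assigned cells, where DESeq2 called 789 genes in all. Of 13 prohormone processing and granule genes, which cut, amidate and store hormones, 13 were tested and 0 passed in either direction, with 5 at an unadjusted p under 0.05 (4091 of the 22660 genes tested, also for the lists that follow) and a median log2 fold change of -0.15. Scg5, the chaperone of the convertase PC2, stood at 72.3 and 63.0 CPM with spermidine and 93.3 and 104 CPM with PBS, and the granin Chgb at 37.6 and 32.4 CPM with spermidine and 57.4 and 63.9 CPM with PBS. The granin Chga stood at 64.9 and 40.0 CPM with spermidine and 117 and 78.6 CPM with PBS, and the amidating enzyme Pam at 307 and 288 CPM with spermidine and 346 and 314 CPM with PBS. In these 4 genes both spermidine values lay below both PBS values, as for 25.9% of all genes. For Chga, 1 cell of PBS replicate 1 held 1253 of that sample's 2786 UMIs, so the Chga gap rests in part on that cell. The highest cell of each sample held between 21.7% and 35.5% of its Chgb UMIs. Summed neuroendocrine markers were 425 and 376 CPM with spermidine and 544 and 489 CPM with PBS. Both values were lower for 7 of its 15 genes, with none at 0, and their part in this was not tested. In Aire-stage cells Chgb went the other way, at 25.5 and 24.9 CPM with spermidine and 4.53 and 3.06 CPM with PBS (adjusted p = 0.537 in edgeR).

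Of 16 islet and enteroendocrine transcription factors 14 were tested and 0 passed (median 0.20, 2 at an unadjusted p under 0.05). Insm1, a zinc finger factor of endocrine cells, stood at 117 and 123 CPM with spermidine and 86.5 and 107 CPM with PBS, Isl1 at 26.4 and 22.0 CPM with spermidine and 30.8 and 31.5 CPM with PBS, and the insulin gene activator Mafa at 21.4 and 27.8 CPM with spermidine and 15.6 and 21.2 CPM with PBS. Of 11 beta-cell glucose sensing and autoantigen genes 10 were tested and 0 passed (median -0.13, 2 at an unadjusted p under 0.05), with the autoantigen Ptprn2 at 171 and 167 CPM with spermidine and 235 and 164 CPM with PBS and Gad1, a glutamate decarboxylase, at 17.5 and 11.7 CPM with spermidine and 8.20 and 10.1 CPM with PBS. Of 22 receptor genes 13 were tested and 0 passed (median 0.40, 3 at an unadjusted p under 0.05), with the insulin receptor gene Insr at 110 and 106 CPM with spermidine and 86.8 and 88.7 CPM with PBS.

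Of 45 other peptide hormone genes 39 were tested and 0 passed, with 11 at an unadjusted p under 0.05 (4091 of the 22660 genes tested), 29 positive fold changes and a median of 0.52. Both spermidine values lay above both PBS values for 17 of the 39, as for 26.0% of all genes tested. Calca, which encodes calcitonin and CGRP, stood at 190 and 169 CPM with spermidine and 117 and 124 CPM with PBS (log2 fold change 0.57, SE 0.08, adjusted p = 0.120 in edgeR). Calcb, its CGRP relative, stood at 296 and 254 CPM with spermidine and 159 and 225 CPM with PBS, and the neurotensin gene Nts at 169 and 151 CPM with spermidine and 83.3 and 146 CPM with PBS. Calcb was spread over more cells than the 10 hormone genes, with at most 5.28% of a sample's UMIs in 1 cell. Pth, parathyroid hormone, stood at 16.2 and 17.1 CPM with spermidine and 343 and 4.77 CPM with PBS, and 1 cell of PBS replicate 1 held 8028 of that sample's 8147 Pth UMIs.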

How the data were processed

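The authors deposited 1 matrix of raw UMI counts per gene and cell barcode for 4 hashed samples and the hashtags, and per the file headers the counting was by Cell Ranger 7.1.0. Bcl2fastq, Seurat and the mm10 build are named in the submitters' processing notes, and strand use and the treatment of shared reads are stated in none of the sources used here. Cells needed 1000 UMIs, 500 genes and under 15% mitochondrial UMIs, which kept 8534 of 12139 barcodes. HTODemux (Seurat 5.3.0, quantile 0.99, 4 labelled hashtags) assigned 4709, and 1027 doublets and 2798 negatives were left out. By 6 hashtags 2299 of the negatives carried HT6 or HT7, and 897 assigned cells (19.1%) were doublets. No expression-based doublet caller was used. Clusters came from scanpy 1.11.5 (2000 variable genes without the 10 hormone genes, 30 components, 15 neighbours, resolution 1).

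Counts were summed per hashed sample and tested, 2 against 2, with edgeR 4.0.16 (TMM, filterByExpr, quasi-likelihood, Benjamini-Hochberg adjustment over all genes tested, threshold 0.05). The step was tested on simulated data with the same set spread between samples for every gene. That run does not cover genes whose UMIs lie in few cells. The alternatives were DESeq2 1.42.0, no filter, the replicate block, each sample left out, other hashtag rules, a cap of 10 UMIs per cell, other clusterings and thinning. Shares were compared after thinning to 5000 UMIs, which left out 544 shallower cells. Intervals and precision cover counting error only. Coordinates are from GENCODE on GRCm38. The text names the 10 genes, up to 4 genes per list with the most UMIs, and the 3 genes nearest in pattern to each. The genes, lists and tests were chosen with earlier results of these data known. One gene that this rule names is not reported here.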

Additional observations from a re-analysis of the deposited data

Results flagged for a closer look

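Barcodes that were assigned to none of the 4 samples held higher counts of 7 of the hormone genes than any PBS cell did. The highest Ins1 count there was 106 UMIs, in a barcode that carried HT6, against 1 in PBS cells and 17 in any assigned cell. The highest Ins2 count was 252 UMIs in a barcode called a doublet, against 87 in PBS cells. For Iapp it was 1757 UMIs in an enterocyte-like or hepatocyte-like barcode with HT6, against 782, and for Pomc 878 UMIs in a barcode with HT7, against 372. One barcode with HT7 held both the highest Ppy count, 378 UMIs against 178 in PBS cells, and the highest Pyy count, 966 UMIs against 378. Among all assigned cells the highest Pyy count was 596 UMIs. The highest Sst count was 1105 UMIs, in a neuroendocrine-like barcode called a doublet, against 426. HT6 and HT7 have no sample in the labels, so these barcodes entered no comparison.

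Gcg differed in direction between classes. Spermidine minus PBS was -56.2 CPM in neuroendocrine-like cells, with 0.860 and 0 CPM with spermidine and 38.6 and 74.6 CPM with PBS. It was 6.20 CPM in transit-amplifying-like cells, with 13.2 and 8.89 CPM with spermidine and 5.98 and 3.73 CPM with PBS. In neuroendocrine-like cells 1 cell in each PBS sample carried most of it. Without the highest cell of each sample the values there were 0 and 0 CPM with spermidine and 4.80 and 0.962 CPM with PBS. In transit-amplifying-like cells Gcg had 124 UMIs in 31 cells, 2 of them with 10 or more. The difference between the classes was not tested.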

How the results depend on the processing

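Calls depended on the tool and the filter. Over all assigned cells edgeR called 0 genes, DESeq2 789, edgeR with no filter 2991 and edgeR with counts capped at 10 per cell 997; of the hormone genes these called 0, 1, 7 and 1. In Aire-stage cells DESeq2 called 68 genes and edgeR with no filter 288, and in neuroendocrine-like cells 9 and 306, with 1 and 2 hormone genes. Leaving out 1 sample gave 0 to 762 genes over all cells, 0 to 1 in Aire-stage and 0 to 33 in neuroendocrine-like cells, with 0 to 2 hormone genes over all cells and 0 to 1 in neuroendocrine-like cells. The replicate block gave 0 calls in each population; same-numbered samples did not deviate together (correlation -0.00218), so the numbers do not show a pairing.

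Fold changes kept their direction and side of the threshold in 96 of 108 alternatives over all cells, 55 of 63 in Aire-stage and 21 of 35 in neuroendocrine-like cells. Over all cells the sign turned when 1 sample was left out for Gcg (-0.134 to 0.472) and Ppy (-0.0234 to 2.35). In Aire-stage cells it did for Ins2 (-0.345 to 0.691), Iapp (-0.0789 to 0.697), Gcg (-0.421 to 0.420), Ppy (-0.0531 to 1.83), Ghrl (-1.14 to 0.501), Npy (-1.13 to 0.913) and Pomc (-0.815 to 0.653). In neuroendocrine-like cells it did for Ins2 (-2.37 to 1.35), Iapp (-0.325 to 0.258), Ghrl (-3.91 to 0.648) and Pomc (-0.0994 to 0.313). There the replicate block turned Ins2 (-0.0976) and Iapp (-0.0266), and no filter turned Iapp (-0.0309). The share of cells with a UMI turned for Ins2 thinned to 2000 UMIs (-0.153) and at 2 or more UMIs (-0.142), and for Ghrl at 2 or more UMIs (0.0393). At clustering resolution 0.5 the Aire-stage share of Ins2 UMIs was 47.5%. There a cluster that shared leading genes with cluster 5 was named enterocyte-like or hepatocyte-like, for 6 markers against 4 of the Aire-stage list. The causes were not tested. The alternatives with 6-hashtag singlets for the counts of shared cells and holder shares, and cluster 4 alone, were chosen after seeing the data.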

Other observations

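Cluster 4 alone, summed as its own population, gave 0 called genes of 16932 in edgeR, with 902 at an unadjusted p under 0.05. There Sst had a log2 fold change of -0.71 (adjusted p = 0.906 in edgeR) and Pyy one of 0.55 (adjusted p = 0.906 in edgeR).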
